A study of Homo sapiens with 6 samples.

Results

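The insulin-like growth factor (IGF) binding protein genes IGFBP1 to IGFBP7 were examined together with IGF1, a ligand they bind, and IGF1R, the receptor that ligand activates. The 9 genes were chosen by name, and every open chromatin region that overlapped the interval of such a gene in the RefSeq gene table, or lay within 50 kb of it, was taken. This gave 147 regions of the 151534 found on chromosomes 1 to 22 and X, around 9 of 19974 protein-coding genes. The assay was ATAC-seq: the transposase Tn5 cuts accessible DNA in isolated nuclei and leaves sequencing adapters at the cuts. The cells were wild-type hTERT-RPE1, a human retinal pigment epithelial line immortalised with telomerase, with no treatment named in the labels. By their titles the 6 libraries form 2 sets of 3, R1 and R2, of the same line and genotype. How the sets differ is not stated in the labels. The libraries of each set were pooled before peaks were called, so there is 1 peak list per set, no spread between replicates and no test between the sets.

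IGF binding proteins are secreted carriers that hold IGF1 and IGF2, lengthen their life in fluid and tissue, and either keep them from or deliver them to the receptor. IGF1R is a receptor tyrosine kinase that signals through insulin receptor substrates, PI3-kinase and AKT towards growth and survival. In the eye, the pigment epithelium is known as a source of IGF binding proteins for the matrix between it and the photoreceptors. ATAC-seq shows where DNA is accessible and does not measure the RNA or protein of any of these genes.

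The R1 list held 142865 peaks on chromosomes 1 to 22 and X and the R2 list held 134351, and in either list the median peak had 72 fragments at its summit. As a check of the cell type, 5 of 8 marker genes of retinal pigment epithelium had a region within 1000 bp of the gene start in both lists, a share no higher than the 70.6% of all protein-coding genes. RPE65, TYR and TTR had one in neither. All 4 mesenchymal markers had one, as did 1 of 2 blood markers, CD3E, so an open start by itself did not single out a cell type. ALB, a hepatocyte marker, had none.

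The promoters of 5 of the genes are shown because they span the range found here, from an open start to a start with no peak. They come from RefSeq on GRCh38.p14, with 250 bases before and 50 bases after the listed start, and are written 5′ to 3′ on the strand of the gene. Capitals mark each CG dinucleotide. The table has such sequences for 7 of the 9 genes and none for IGFBP1 and IGFBP7. Over all 22132 listed starts of protein-coding genes the median was 21 CG dinucleotides and 62.3% G and C.
IGFBP2, chr2:216633170-216633469, plus strand: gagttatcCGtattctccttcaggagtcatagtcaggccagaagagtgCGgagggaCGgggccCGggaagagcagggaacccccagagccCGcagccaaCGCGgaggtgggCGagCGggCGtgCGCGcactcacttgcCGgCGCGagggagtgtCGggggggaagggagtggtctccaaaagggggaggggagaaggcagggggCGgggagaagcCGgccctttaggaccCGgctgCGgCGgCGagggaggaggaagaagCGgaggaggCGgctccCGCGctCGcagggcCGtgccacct
IGFBP3, chr7:45921223-45921522, minus strand: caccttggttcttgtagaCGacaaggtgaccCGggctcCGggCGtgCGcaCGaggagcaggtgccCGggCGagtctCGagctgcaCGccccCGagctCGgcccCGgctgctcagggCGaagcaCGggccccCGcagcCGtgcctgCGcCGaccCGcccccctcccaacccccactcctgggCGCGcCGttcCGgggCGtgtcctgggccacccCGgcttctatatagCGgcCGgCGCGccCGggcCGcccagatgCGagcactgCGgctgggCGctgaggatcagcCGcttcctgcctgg
IGFBP4, chr17:40443200-40443499, plus strand: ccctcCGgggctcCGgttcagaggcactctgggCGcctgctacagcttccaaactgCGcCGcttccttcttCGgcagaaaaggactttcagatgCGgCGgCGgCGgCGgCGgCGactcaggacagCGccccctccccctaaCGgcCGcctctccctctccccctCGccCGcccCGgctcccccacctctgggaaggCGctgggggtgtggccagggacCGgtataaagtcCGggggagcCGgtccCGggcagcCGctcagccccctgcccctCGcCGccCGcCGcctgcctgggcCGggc
IGFBP5, chr2:216695500-216695799, minus strand: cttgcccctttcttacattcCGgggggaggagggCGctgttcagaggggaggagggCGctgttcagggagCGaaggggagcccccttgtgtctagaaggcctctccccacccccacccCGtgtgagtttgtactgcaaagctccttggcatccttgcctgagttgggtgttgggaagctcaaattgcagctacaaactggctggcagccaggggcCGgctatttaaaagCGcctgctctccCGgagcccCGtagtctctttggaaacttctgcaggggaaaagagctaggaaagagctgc
IGF1, chr12:102481698-102481997, minus strand: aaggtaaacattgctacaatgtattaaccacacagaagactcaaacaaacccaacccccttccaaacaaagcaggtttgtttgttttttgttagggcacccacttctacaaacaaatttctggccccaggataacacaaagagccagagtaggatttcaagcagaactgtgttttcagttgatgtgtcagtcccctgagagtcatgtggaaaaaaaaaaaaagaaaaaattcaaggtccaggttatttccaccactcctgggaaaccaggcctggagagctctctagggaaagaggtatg

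These sequences range widely in CG dinucleotides and in G and C, the second from 42.3% in IGF1 to 74.7% in IGFBP3. IGFBP3 has 36 CG dinucleotides, IGFBP4 has 30 and this start of IGFBP2 has 28. IGFBP5 has 9 and IGF1 has 0. In both lists a peak overlapped the printed window of IGFBP2 and of IGFBP5. The window of IGFBP3 had a peak in R2 alone, and the windows of IGFBP4 and IGF1 had none in either list. Among all listed starts, the 5533 poorest in CG had a peak in both lists in 21.5% of cases and the 5533 richest, where IGFBP3 falls, in 83.8%. Among the 5533 next in order below these, where IGFBP4 falls, it was 88.1%. IGFBP4 and IGFBP3 thus lacked a shared peak over sequence as rich in CG as promoters that mostly have one. IGF1R, not printed, has 55 CG dinucleotides and IGFBP6 has 12, and both had a peak over the window in both lists.

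Short motifs were searched on both strands of the same 300 base windows. The AP-1 motif TGANTCA was found in none of the promoters listed for the 9 genes and in 6.15% of all promoters. The TEAD motif GGAATG occurred once each in the windows of IGFBP5 and IGFBP6 and in 12.2% of all promoters. TATAAA occurred once, in IGFBP4, against 9.46% of all promoters. The GC box GGGCGG was present for IGFBP2, IGFBP3, IGFBP4, IGFBP6 and IGF1R and in 56.3% of all promoters. CCAAT was found in 1 window, at an inner listed start of IGFBP2 that is not printed, and in 34.6% of all promoters. A match says only that the letters are present.

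The first comparison set the gene starts against those of all genes. Of the 9 genes, 7 had a region within 1000 bp of the start in both lists, against 70.6% of all 19974 protein-coding genes (71.4% of those with a strand in the table), so the share was near that of genes in general. IGFBP1 had such a region in R2 alone and IGF1 had none in either list. IGFBP1 and IGFBP7 have no strand in the table, so for them a region at either end of the interval was counted. Over the 300 base windows themselves, 4 of the 7 genes with a listed start had a peak in both lists, against 69.1% of 15812 genes.

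The starts that were open stood low by fold enrichment, which is the authors' value for each peak and is used here only within a list. Fold was taken as the fragments over the summit, plus 1, divided by a local background, plus 1, which no source used here states. Both terms were recovered from the deposited fold and p-value. Where several peaks lay within 1000 bp, the one with the highest fold was taken. The median fold at the 7 starts was 3.42 in R1 and 4.299 in R2, against 7.36 and 7.41 over the 14101 genes with a start region in both lists. All 7 lay below the median of all genes in both lists. The median background at the 7 starts was 57.4 fragments in R1 and 66.1 in R2, against 36.5 and 37.8 over all genes. The median number of fragments over the summit was 198 in each list, against 297 and 311.

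**Figure D1:**
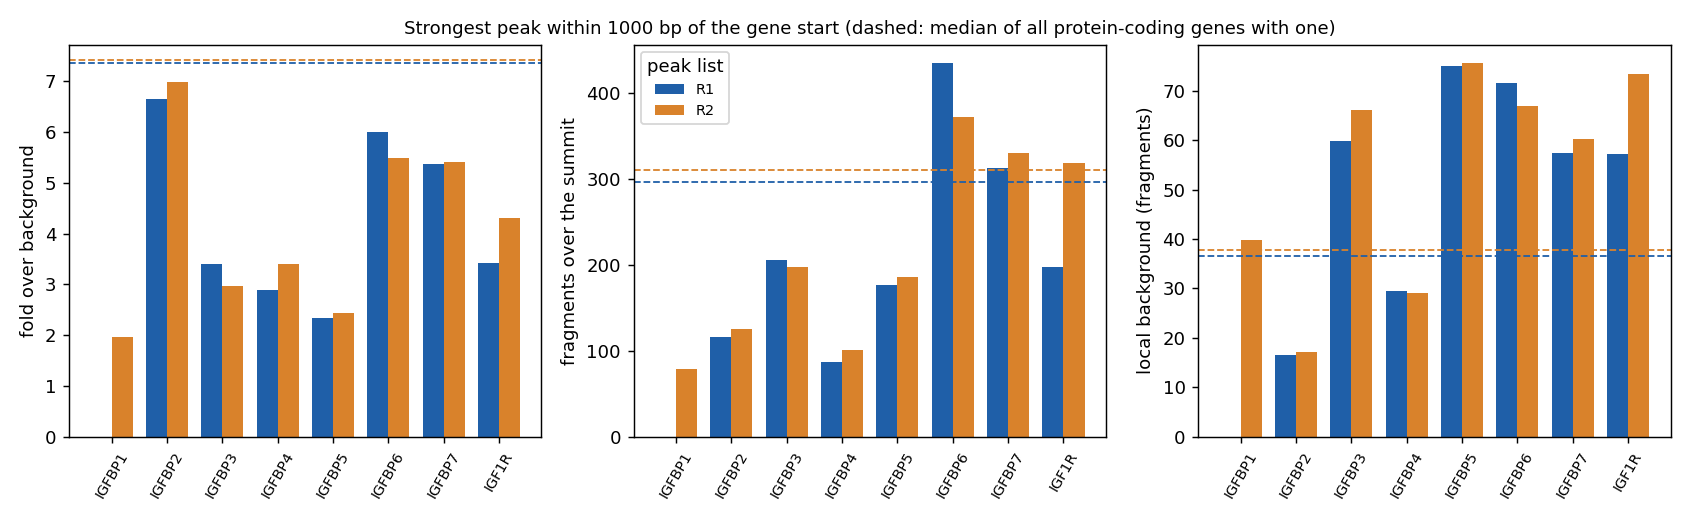
Fold over background, fragments over the summit and local background in fragments (vertical axes) of the strongest peak within 1000 bp of each gene start, in the R1 list (blue) and the R2 list (orange). Dashed lines are the medians of all protein-coding genes with a start region in both lists, IGF1 has no such peak and IGFBP1 has none in R1. All bars for fold lie below the lines at 7.36 and 7.41. IGFBP5 and IGFBP6 reach backgrounds of 66.8 to 75.5 fragments, and IGF1R reaches 73.4 in R2.

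Among the carriers, IGFBP6 had the start with the most fragments. IGFBP6 is known for binding IGF2 in preference to IGF1. Its single region (chromosome 12, 53097192 to 53099668) was 2477 bp wide and covered the start and part of the gene. It held 435 fragments over the summit in R1 (95% exact Poisson interval 395 to 478, counting error alone) and 372 in R2 (335 to 412). The fold was 6.003 in R1 and 5.50 in R2 on a background of 71.6 and 66.8 fragments. By fragments this start lay at the 85.3 and 69.2 percentile of genes with a start peak in R1 and R2, and by fold at the 32.8 and 25.2 percentile.

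IGFBP7, a carrier that binds IGFs weakly and is also deposited around blood vessels, came next. Its open end is the higher one on chromosome 4, where a region from 57109204 to 57111533 held 313 fragments in R1 and 330 in R2, with folds of 5.38 and 5.41. The region also covered the start of the antisense transcript gene IGFBP7-AS1, which lies 623 bp inside the IGFBP7 interval. IGFBP7 had 12 shared regions across its interval of 79613 bp and 23 in its whole window. None of its regions reached a mean percentile of 90. The strongest lay 8396 bp beyond that end, with folds of 8.82 and 9.28. The next was 34585 bp beyond the other end, inside POLR2B, with folds of 8.31 in both lists. Another lay 36891 bp beyond the open end, with 6.56 and 6.45.

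IGFBP4, the carrier cleaved by the protease PAPPA, had a wide region with a low fold. It ran from 40443810 to 40445959 on chromosome 17 and began 360 bp inside the gene, so the promoter window itself had no peak. The region was 2150 bp wide and held 87 fragments in R1 (70 to 107) and 101 in R2 (82 to 123), with folds of 2.89 and 3.40. By width it lay at the 90.3 and 87.5 percentile of genes with a start peak, and by fold at the 5.97 and 8.09 percentile. Its window also holds TOP2A and TNS4. The regions of the window with the best mean percentile lay in TOP2A, with folds of 9.91 and 8.24, at the end of TNS4 that faces IGFBP4, with 8.84 and 8.62, and farther inside TNS4, with 8.46 and 8.89. Within the IGFBP4 interval there were 3 shared regions, of which 1 spanned its far end with folds of 6.69 and 7.04.

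IGF1, the ligand, was the gene with the fewest regions. Its window of 186 kb held 3 regions, all shared, against a median of 10 per window over all protein-coding genes. The nearest lay 2506 bp upstream of the start (chromosome 12, 102484345 to 102484925), with folds of 7.28 and 5.69 from 64 and 49 fragments. A second lay 45095 bp upstream, with folds of 6.16 and 5.34, and another 18324 bp inside the gene, with 4.25 and 3.41. All 3 sat on the lowest background of their list, 7.93 fragments in R1 and 7.79 in R2, as did 30.8% of all R1 and 30.3% of all R2 peaks. Between this last region and the far end of IGF1 no region was called in either list.

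IGF1R, the receptor, was at the other extreme. Its start was open in both lists, from 98647085 to 98648723 on chromosome 15, with 198 fragments in R1 (171 to 228) and 319 in R2 (285 to 356). The folds were 3.42 and 4.299. In R1 this stretch was called as 2 peaks and in R2 as 1, and R2 had a further weak peak 421 bp inside the gene with a fold of 2.22. Another shared region covered the start of the antisense gene IRAIN, 2248 bp inside IGF1R, with folds of 3.17 and 2.30. Across the interval of 316 kb lay 38 shared regions, or 12.03 per 100 kb, with a median gap of 5330 bp between them. They covered 12.8% of the interval. The longest stretch with no shared region was 38436 bp and began 266942 bp from the start.

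The strongest regions of the receptor gene lay deep inside it. The best mean percentile, 95.4, belonged to a region 174345 bp from the start (98822884 to 98823779), with folds of 11.63 and 11.46. The next lay 241123 bp from the start, with folds of 10.90 and 11.32, and another 265697 bp from the start, with 10.62 and 11.35. The start itself had a mean percentile of 35.4. The gene table gives no exons, so whether these regions are intronic was not analysed here.

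**Figure D2:**
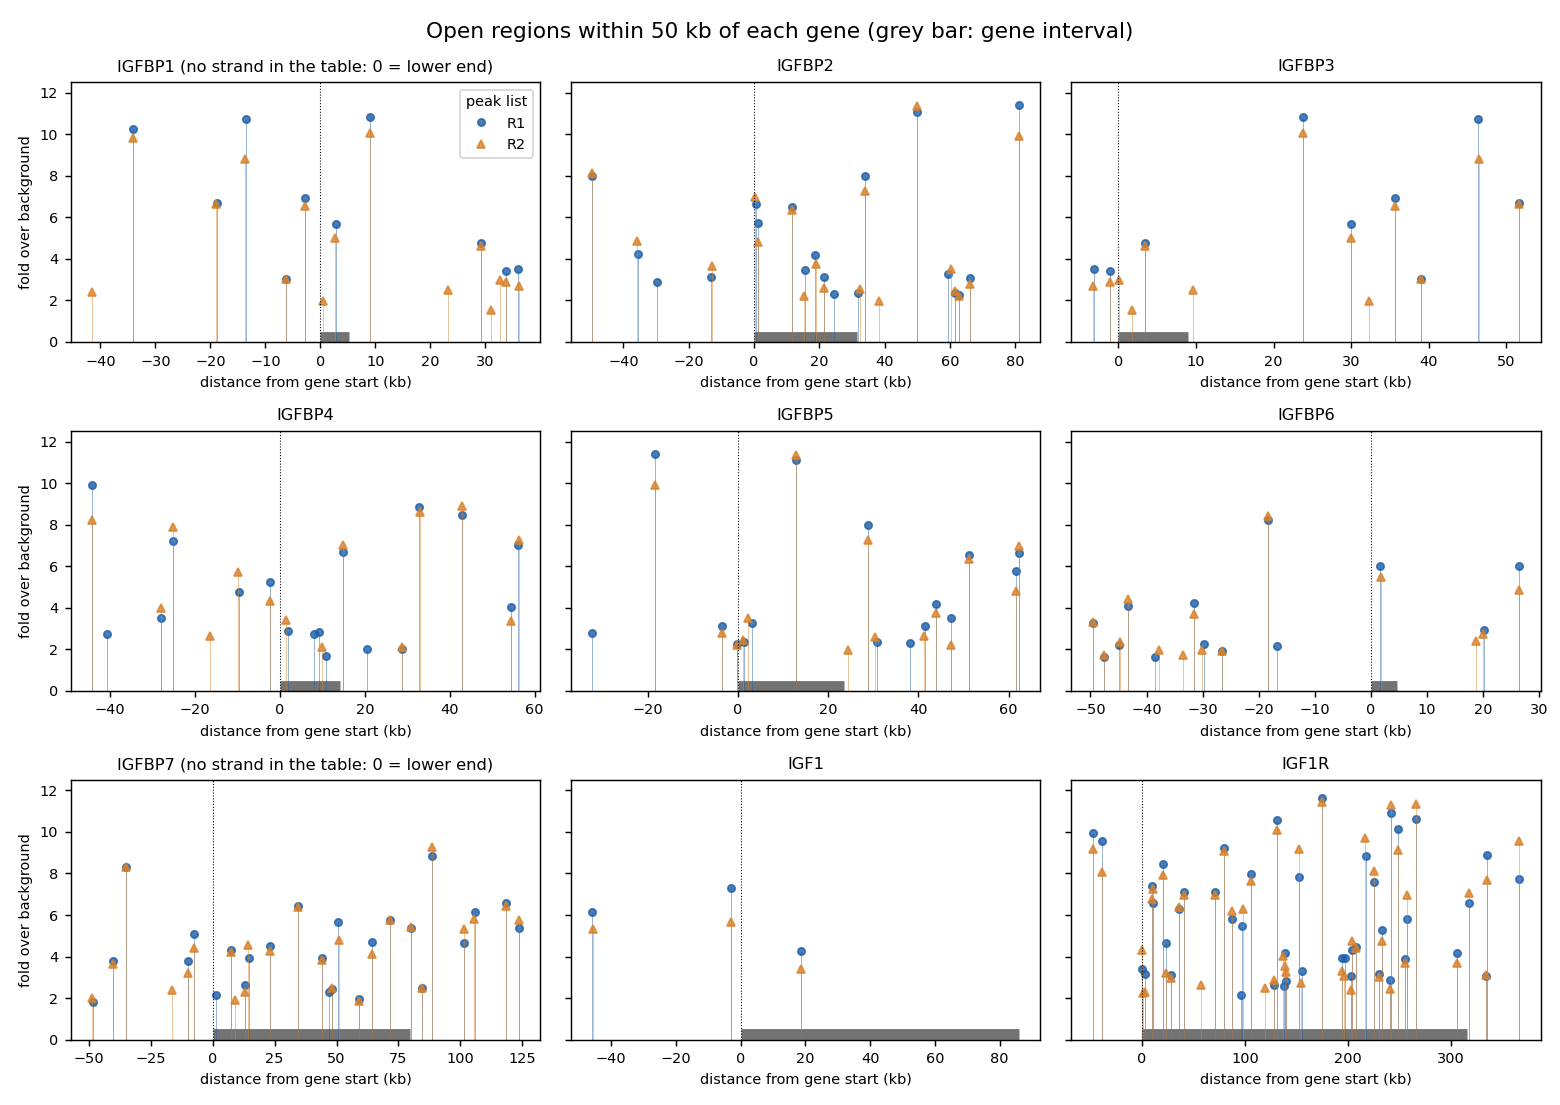
Fold over background (vertical axis) of every region within 50 kb of each gene, by distance of its summit from the gene start in kb (horizontal axis), with circles for the R1 list and triangles for the R2 list. The grey bar is the gene interval, and for IGFBP1 and IGFBP7, which have no strand in the table, distance runs from the lower end. IGF1 shows 3 regions and IGF1R 48.

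The start region was the strongest shared region of its window for 0 of the 7 genes with an open start in both lists. Over all 14101 such genes this held for 17.2%, so a count of 0 among only 7 genes is near that share. The windows differ in length and some share regions, so the 7 genes are not independent of each other. In IGFBP6 the strongest region lay at the start of SPRYD3, 17581 bp upstream, with folds of 8.23 and 8.41. Apart from its own start, the next of that window lay 20807 bp downstream of the gene, with folds of 5.99 and 4.84. This was at the end of SOAT2 that faces away from IGFBP6. Another was in TNS2, 42871 bp upstream, with 4.07 and 4.42.

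The first neighbouring pair, IGFBP1 and IGFBP3, lies on chromosome 7 with 18584 bp between the gene intervals. IGFBP1 is known as a liver-made carrier that insulin represses, and IGFBP3 as the main carrier of IGFs in blood, where it binds them together with the IGFALS protein. Their windows overlap, so each region was counted for the nearer gene. Of 10 shared regions, 7 lay nearer to IGFBP1 and 3 nearer to IGFBP3. Each gene had 1 shared region inside its interval, and several of those nearer to IGFBP1 overlapped another protein-coding gene, CCDC201. The median of their mean percentiles was 66.0 for IGFBP1 and 24.4 for IGFBP3. No test applies, because each list pools its libraries and the regions of 1 locus are not replicates.

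Regions of high fold surrounded IGFBP1, although its own ends were hardly marked. The region at its lower end (45888541 to 45889013) was called in R2 alone, with a fold of 1.96 from 79 fragments. A shared region within the gene (45890974 to 45891701) had folds of 5.68 and 5.005. In the gap between both genes, 3613 bp from IGFBP1 and 13514 bp from IGFBP3, lay the strongest region of the pair (45897273 to 45898731), with folds of 10.83 and 10.06. On the other side of IGFBP1 were regions 13126 bp away, inside CCDC201, with folds of 10.74 and 8.81, and 33492 bp away, with 10.24 and 9.83. A region 2310 bp from IGFBP1, with folds of 6.94 and 6.56, lay at the end of CCDC201 that faces IGFBP1.

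IGFBP3 had regions of low fold around its start. R2 had a peak over the start (45920382 to 45921354) with a fold of 2.97 from 198 fragments (171 to 228), and R1 had none there. Just upstream, 792 bp from the start, a region from 45922064 to 45923670 was called in both lists, with folds of 3.41 and 2.87 from 206 and 191 fragments. It alone gives IGFBP3 its start region in R1. By fragments the start peak of highest fold lay at the 83.9 percentile of all R1 peaks and the 83.3 of all R2 peaks. Among genes with a start peak it lay at the 31.9 and 27.3 percentile. The background at these peaks was high, with 59.8 fragments in R1 and 66.1 in R2. Further shared regions lay 2905 bp upstream, with folds of 3.50 and 2.67, and within the gene (45917709 to 45918461), with 4.77 and 4.61. A mean percentile of 50 was reached by 6 of the 7 shared regions nearer to IGFBP1 and by 0 of the 3 nearer to IGFBP3. The median over all shared regions was 55.7, so most of them also reached 50. By fragments the region at the end of CCDC201 that faces IGFBP1 held the most of the pair, with 297 in R1 and 281 in R2. The region inside CCDC201, 13126 bp from IGFBP1, had 296 and 217, the one in the gap 142 and 132 and the one 33492 bp from IGFBP1 109 and 107. The region within IGFBP3 had 209 and 228, and the one just upstream of its start 206 and 191.

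**Figure D3:**
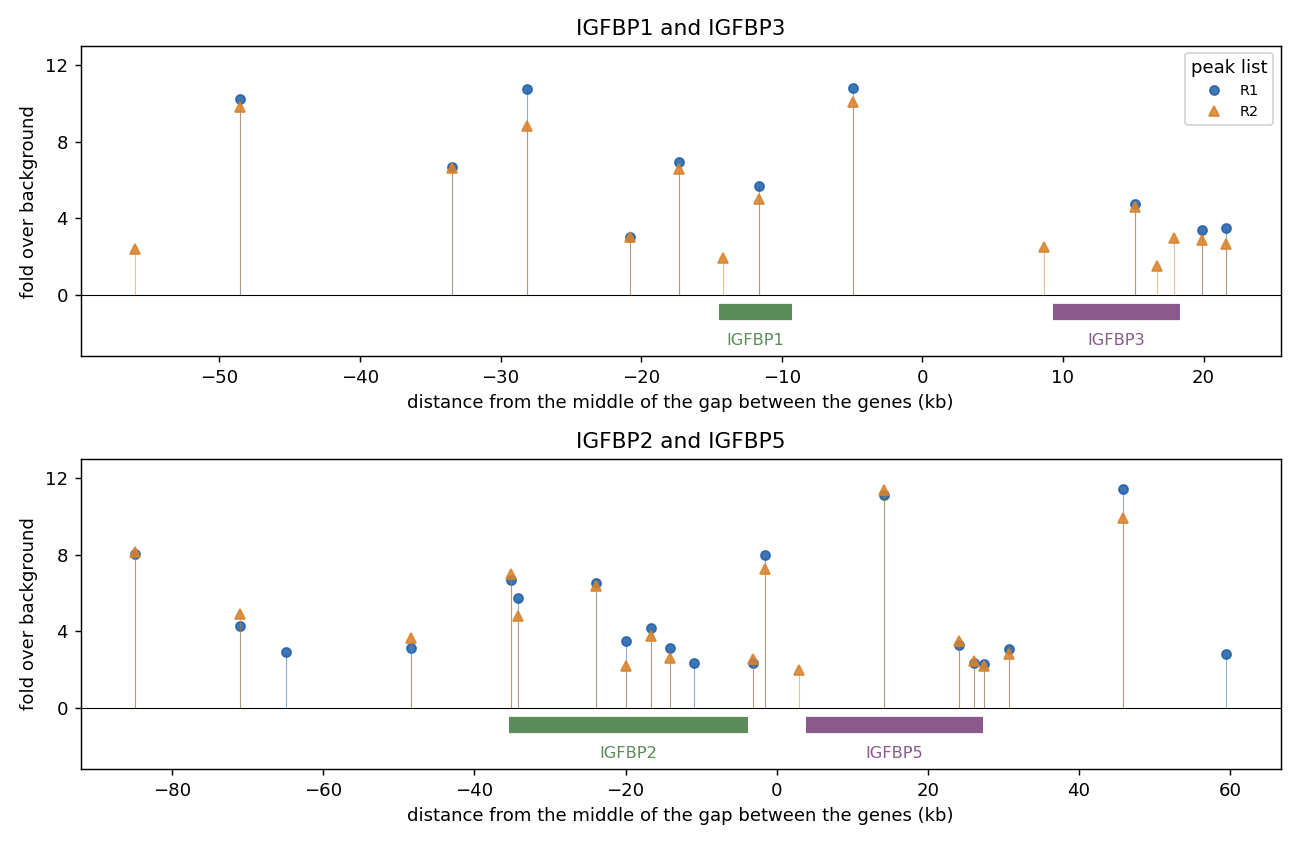
Fold over background (vertical axis) of the regions around IGFBP1 and IGFBP3 (top) and IGFBP2 and IGFBP5 (bottom), by distance from the middle of the gap between both genes in kb (horizontal axis), with circles for the R1 list and triangles for the R2 list. Bars below the axis are the gene intervals. Folds near IGFBP1 reach 10.83, those at IGFBP3 stay at 4.77 or less, and IGFBP5 has its strongest regions away from its start.

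The second pair, IGFBP2 and IGFBP5, lies on chromosome 2 with 7668 bp between the intervals. IGFBP2 is a carrier with an integrin-binding RGD sequence, and IGFBP5 one that binds extracellular matrix. Of 17 shared regions, 11 lay nearer to IGFBP2 and 6 nearer to IGFBP5. The median mean percentile was 44.5 for IGFBP2 and 24.7 for IGFBP5. A mean percentile of 90 or more was reached by 0 of the regions nearer to IGFBP2 and by 2 of those nearer to IGFBP5. Among all shared regions 11.0% reached it.

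IGFBP2 had the start with the highest fold of the 9 genes. Its region (216632633 to 216633476) covered the outermost start and the next one listed, with folds of 6.65 and 6.99 from 116 and 125 fragments. The background there was 16.6 and 17.0 fragments, the lowest of the open starts. A companion region 914 bp inside the gene had folds of 5.74 and 4.81. Of 6 shared regions in the interval, the strongest away from the start lay at 216643843 to 216644826, with folds of 6.52 and 6.34. The farthest of its regions, 49160 bp upstream, had folds of 8.01 and 8.13.

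IGFBP5 combined a start of low fold with regions of high fold away from it. At the start a narrow region of 336 bp (216695544 to 216695879) had folds of 2.27 and 2.20, and another, 811 bp inside the gene, had 2.34 and 2.44. The higher of these folds ranks at the 2.06 percentile of start peaks in R1 and the 2.19 in R2. The fragments over these summits were not few, with 177 in R1 (152 to 205) and 186 in R2 (160 to 215) at the higher one. The background was 75.03 and 75.5 fragments, at the 94.3 and 94.0 percentile of start peaks. The second region also covered the start of the antisense gene IGFBP-AS1. A region inside IGFBP5, 12483 bp from the start (216681976 to 216683066), had folds of 11.09 and 11.36, and one 17941 bp upstream (216713490 to 216714670) had 11.41 and 9.93. In the gap between IGFBP2 and IGFBP5 a region 1893 bp from IGFBP2 and 5054 bp from IGFBP5 had folds of 7.99 and 7.26.

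The pairs share some features and differ in others. In both, the gene given first, IGFBP1 or IGFBP2, had more of the shared regions and the higher median percentile. Several of the regions counted for IGFBP1 overlapped CCDC201. The strongest region of the first pair lay nearer to IGFBP1 and that of the second inside IGFBP5. IGFBP3 and IGFBP5, the genes of each pair with a shared region at the start and a low fold, both had backgrounds of more than the median over all genes. Counted as R2 peaks alone, IGFBP1 had 9 and IGFBP3 had 7, of which 2 of IGFBP3 fall in 1 region, so that it had 6 regions with an R2 peak. With −log10 q of at least 10 IGFBP2 and IGFBP5 had 6 shared regions each.

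Density of regions was compared with that of all protein-coding genes. Shared regions per 100 kb of window numbered 12.9 for IGFBP2, 12.8 for IGFBP7, 11.5 for IGFBP6, 11.4 for IGFBP4, 11.3 for IGFBP5 and 10.6 for IGF1R. They numbered 9.51 for IGFBP1, 8.25 for IGFBP3 and 1.61 for IGF1. The median over all protein-coding genes was 6.76, with quartiles of 3.86 and 9.84. Thus 8 of the 9 lay above that median and 6 above the upper quartile, and IGF1 lay at the 11.2 percentile. Windows of IGFBP1 with IGFBP3 and of IGFBP2 with IGFBP5 overlap, so these densities are not independent. All windows except that of IGF1 also take in other protein-coding genes. Inside the gene interval itself lay 38 of 44 shared regions for IGF1R, 12 of 23 for IGFBP7 and 6 of 17 for IGFBP2. For IGFBP5 it was 4 of 14, for IGFBP4 3 of 13 and for IGF1 1 of 3. For IGFBP1, IGFBP3 and IGFBP6 it was 1 of 10, 1 of 9 and 1 of 12. By plain number of shared regions IGF1R, with 44, lay at the 99.4 percentile and IGFBP7, with 23, at the 95.1 percentile, and both genes are long.

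**Figure D4:**
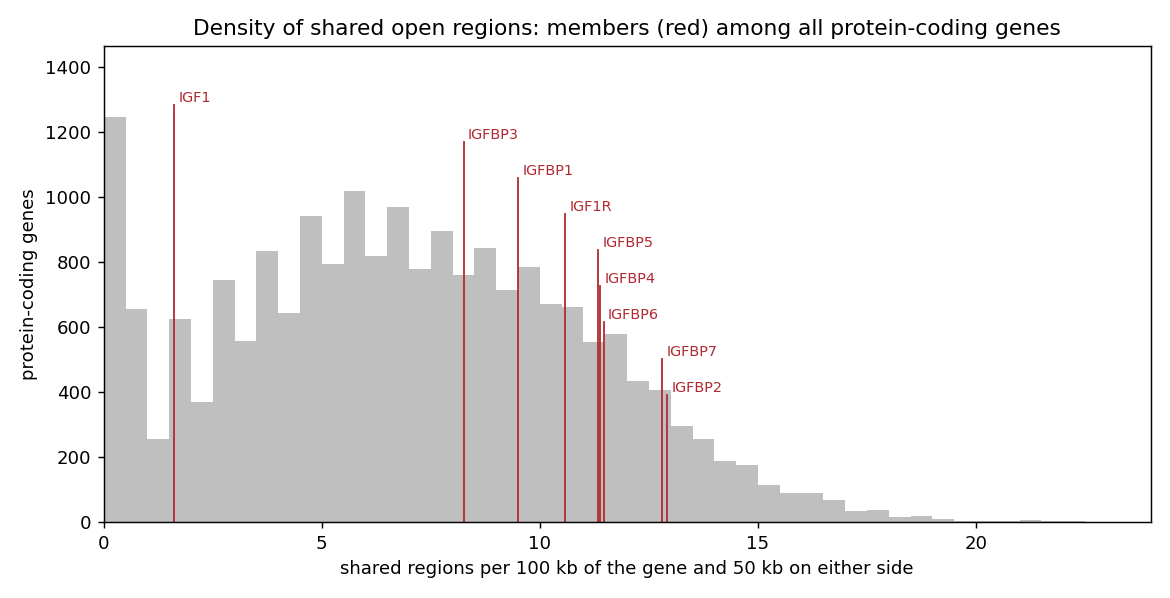
Shared regions per 100 kb of each gene with 50 kb on either side (horizontal axis) over 19974 protein-coding genes (grey, number of genes on the vertical axis), with the 9 genes as red lines whose height has no meaning. Values run from 1.61 for IGF1 to 12.9 for IGFBP2.

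The regions themselves ranked lower by fold than shared regions in general. Fold depends on the local background as well as on the fragments over the summit. Fragments were not compared for these regions as a set, so the ranking holds for fold alone. Around the 9 genes 122 of 147 regions were shared (83.0%, 95% Wilson interval 76.1 to 88.2, counting error alone), against 80.8% over all regions. The median of their mean percentiles was 46.5, against 55.7 over all 122421 shared regions. Of the 122, 7 (5.74%) had a mean percentile of 90 or more, against 11.0% of all shared regions. These 7 comprise 4 in IGF1R, 2 near IGFBP5 and 1 between IGFBP1 and IGFBP3. At least 1 such region lay in the window of 5 of the 9 genes, against 54.6% of all protein-coding genes. Of the 25 regions found in 1 list, 11 were in R1 and 14 in R2, and none of them exceeded a fold of 2.97. Across the 122 regions the percentiles in R1 and R2 had a Pearson r of 0.96 and the folds a Spearman rho of 0.97, as a description of regions from the same cells, against 0.96 and 0.96 over all shared regions.

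Other genes of the pathway were counted from a list of 46. Of these, 41 had a start region in both lists (89.1%) and 5 in neither, where all protein-coding genes gave 70.6% and 26.6%. All 8 adaptors, among them IRS1 and IRS2, all 12 downstream kinases and factors and all 3 mRNA-binding proteins of the IGF2BP family had one. So did the receptor genes INSR, with folds of 8.88 and 8.84, IGF2R, with 8.36 and 8.40, and INSRR. The ligand gene IGF2 had a weak region, with folds of 3.23 and 2.81, counted at either end for want of a strand, and INS had none. IGFALS, the partner of IGFBP3 in blood, had 3.03 and 2.75.

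Of 13 relatives of the binding proteins 10 had a start region in both lists (76.9%), near the 70.6% of all protein-coding genes. KAZALD1 had folds of 10.57 and 10.03 and ESM1, which encodes the proteoglycan endocan, 10.49 and 9.55, and with MTOR, at 9.55 and 8.96, they had the best mean percentiles of the list. CCN6, HTRA3 and HTRA4 had none. Of 4 genes for proteases of binding proteins and their inhibitors, PAPPA, STC1 and STC2 had a start region in both lists, which at 3 of 4 is also near that share, with folds of 4.14 and 4.04 at PAPPA. PAPPA2 had none at its start and 0 shared regions within 50 kb. INS, IGF2, IGFALS, INSR, IGF2R, PAPPA and PAPPA2 were picked for naming after their values were seen.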

How the data were processed

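ATAC-seq of 6 libraries of wild-type hTERT-RPE1 cells, in sets R1 and R2, was used as 1 deposited peak list per set. Positions are on hg38, per the submitters' processing notes. Which aligner and peak caller were run, with which filters, and whether reads were shifted to the Tn5 cut is not given in the sources used here. Unshifted reads would move summits by a few bases. Per peak, the authors deposited a fold over background (a ratio), the −log10 of its p-value and of its q-value, a score that was not used, and the offset of the summit. Coordinates were turned to count from 1. Regions are R1 and R2 peaks joined where they overlap by at least 1 bp. Shared regions hold peaks of both lists. Percentiles rank folds within a list.

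Gene intervals are those of RefSeq (GRCh38.p14), and strand came from its promoter table for 15813 of 19974 protein-coding genes. For the others, either end counted as the start. Fragments over the summit (k) and background (b) were found from fold = (k + 1)/(b + 1) and the Poisson chance of more than k. For 99.998% of R1 and 99.995% of R2 peaks a whole k matched the deposited −log10 p-value to 0.001. No source used here states this relation, or that the units counted are fragments.

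The genes, lists and tests were chosen with earlier results of these data known. All 9 genes are named, with each region at a start and the 3 others of the best mean percentile per gene. The 3 best pathway genes and the first 3 with no start region follow a rule, and other names were added after seeing values. No gene was named for a similar pattern, because 2 pooled lists give no profile. No test across replicates was possible. Interval and pileup steps were tested on simulated data. Alternatives covered q-value, fold, list, overlap and window. Tools were statsmodels 0.14.6, scipy 1.17.1, pandas 2.3.3, numpy 2.4.6 and matplotlib 3.10.9 under Python 3.11.15.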

Additional observations from a re-analysis of the deposited data

How the results depend on the processing

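No paired analysis was possible because the libraries of each set were pooled into 1 list before deposit, which also left no library to leave out. The count of genes with a start region in both lists, 7, was 3 with peaks at or above the median fold of their list and 4 over the 300 bp promoter windows, an alternative chosen after seeing the data that covers 7 genes. It lay between 5 and 8 under its other alternatives. The 122 shared regions became 53 with peaks at or above the median fold and lay between 83 and 176 otherwise. The excess of IGFBP1 over IGFBP3, 4 regions, was 2 where R2 peaks alone were counted (9 and 7 peaks, in 9 and 6 regions) and 1 with windows of 10 kb. The excess of IGFBP2 over IGFBP5, 5 regions, was 3 where −log10 q had to reach 5 and 0 where it had to reach 10. It was 2 with peaks at or above the median fold. Where R2 peaks alone were counted it was 3 (11 and 8 peaks, in 11 and 7 regions). With windows of 10 kb it was 3 and with windows of 100 kb it was 11. No sign was reversed. A stricter threshold leaves fewer peaks by construction, and otherwise the cause was not tested. The sequencing depth of each library is unknown. The lowest background was 7.93 fragments in R1 and 7.79 in R2, and the median peak had 72 fragments in either list. Fragments at regions found in 1 list ran from 18, inside IGF1R in R1, to 198, at the IGFBP3 start in R2. Whether weak regions missing from 1 list were undetectable at its depth was not tested.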
